A study of Gallus gallus with 12 samples.

Results

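A group of 22 genes was lower after lipopolysaccharide (LPS) than after saline in hypothalamic microglia of chicks without heat conditioning, while in heat-conditioned chicks their levels after LPS and after saline were close. The 22 genes were found among 3999 genes that held 150 or more counts over the 12 libraries, out of 11207 in the deposited table. Levels are CPM, the count of a gene divided by the library's total and multiplied by 1000000. A gene was a member when a, the log2 ratio of the mean LPS level to the mean saline level without conditioning, was at or under -0.8, and b, the same ratio after conditioning, was above -0.3, with 5 CPM added to each mean. The members were chosen by these levels in all 12 libraries, so both LPS effects of the members and their difference are given below as a description and support nothing by themselves.

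The cells were microglia of Gallus gallus chicks, sorted by flow cytometry from the anterior hypothalamus on day 11 after hatching, with 1 library for a pool of 10 to 12 birds. The first factor was the history of the birds: the Cond groups had spent 24 h at 39°C from day 3, and the Non-Cond groups had not been heat-conditioned. The other factor was the injection into the third ventricle on day 10, which held saline or LPS and preceded the collection by 24 h. The 4 groups, Saline Non-Cond, LPS Non-Cond, Saline Cond and LPS Cond, had 3 libraries each, and every bird had received an injection, so that no group was free of that procedure. The sources used here do not give the strain, the sex, the dose of LPS or the marker of the sort. The 3′ ends of mRNA were counted by bulk MARS-seq.

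Microglia are the resident macrophages of the brain. LPS, a component of the outer membrane of Gram-negative bacteria, is sensed by macrophages through Toll-like receptor 4, which raises transcripts of cytokines, chemokines and other defence genes. In mice, microglia that respond to LPS also lower transcripts of their resting state, among them the purinergic receptor gene P2ry12, so falls as well as rises belong to the known response. The anterior hypothalamus holds neurons that regulate body temperature, and exposure of young chicks to heat is used to alter their later response to heat. An earlier stimulus can also change how macrophages answer a later one, which is the question that comparing the LPS effect in the 2 conditioning states addresses.

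The table gives genes by versioned Ensembl identifiers alone, and 0 of the 11207 identifiers could be paired with a symbol through the reference table used (25635 chicken genes). For that reason no role is given for any member, no sequence is shown, and neither the microglial markers nor markers of neurons, other glia, vessels or blood cells could be looked up. Members are numbered 1 to 22 by the difference b minus a, from the widest to the narrowest, and identifiers are printed for members 1 (ENSGALG00000024449.4) and 2 (ENSGALG00000038251.2). In bulk libraries of sorted cells, fewer cells of a type and less RNA per cell cannot be told apart.

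Library totals ran from 189180 counts in Saline Non-Cond replicate 2 to 963146 in Saline Cond replicate 3, so that 3 counts were worth 15.9 CPM in the former and 3.11 CPM in the latter. Most members had low counts. Their totals over the 12 libraries ran from 154 to 11536 counts with a median of 273.5, and 19 of the 22 had fewer than 400. None of the 264 member values was 0, and 3 values, in 3 members, were at or under 3 counts. The mean level of a member was 51.1 CPM at the median, with a range from 27.9 to 2159.7 CPM, and 3 members lay above the median of all 3999 genes, 76.1 CPM. Counting error alone gave a standard error of 0.27 for a at the median member, and a was more than 2 such errors below 0 in all 22, in genes picked for a low a. For b minus a the counting error was 0.35 at the median member. That difference was more than 2 such errors above 0 in 17 of the 22, in genes picked by both a and b. How many of all 3999 genes were beyond 2 such errors was not counted, so nothing is read from either count. Libraries are treated as separate samples as far as the labels say, and the spread between them may in part be technical.

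Of the 3999 genes, 38 had a at or under -0.8, and 22 of these 38 had b above -0.3 and are the members. The other 16 had b at or under -0.3, and for 6 of them b was at or under -0.8 as well. The rule with the conditioning states exchanged, a fall after conditioning that was absent without it, found 48 genes. The rule with the direction turned, a rise of 0.8 or more without conditioning and a value under 0.3 after it, found 67 genes. The pattern that defines the members was therefore not confined to falls, nor to falls in non-conditioned chicks.

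**Figure D1:**
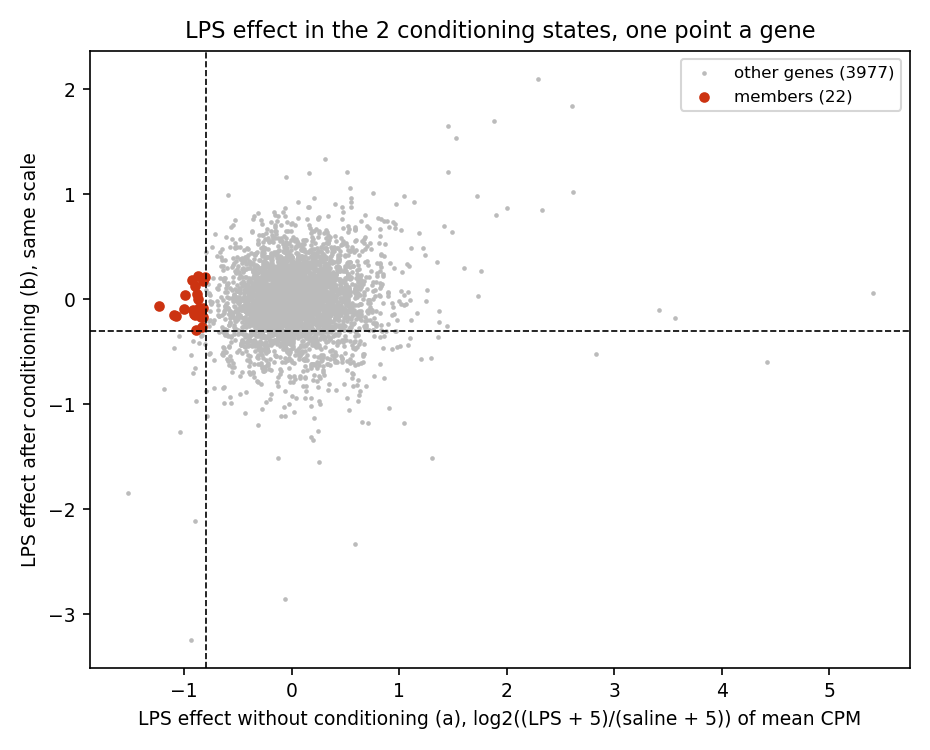
Each point is 1 of 3999 genes, with the LPS effect without conditioning (a) on the horizontal axis and after conditioning (b) on the vertical axis, both as log2 ratios of mean CPM with 5 CPM added. Dashed lines mark the limits of -0.8 and -0.3; the 22 members (red) lie at the left edge of the cloud, with a between -1.23 and -0.80 and b between -0.29 and 0.22.

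Among the members a had a median of -0.88 and b a median of -0.09, against medians of 0.01 and -0.01 over all 3999 genes. The values of b fell on both sides of 0, above it in 8 members and at or below it in 14. Just inside the limit on a, members 6 and 7 had a of -0.80 and -0.82, with b of 0.21 and 0.18. Just outside it lay 2 genes with a of -0.80 and -0.79 and b of 0.09 and 0.44, the first of them by less than the printed precision. Just inside the limit on b, members 21 and 22 had b of -0.29 and -0.26, with a of -0.89 and -0.83. The nearest genes outside had b of -0.34 and -0.35, with a of -0.83 and -1.05. No gap in the values separates members from non-members at either limit.

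Member 1, ENSGALG00000024449.4, had the lowest a, -1.23, and a b of -0.07. Its levels were 105, 137 and 82.3 CPM in Saline Non-Cond replicates 1 to 3, and 47.2, 45.5 and 36.6 CPM in the LPS Non-Cond libraries. All 3 saline libraries stood well above all 3 LPS libraries. In conditioned chicks its levels were 66.1, 46.6 and 59.2 CPM with saline and 61.9, 57.4 and 44.3 CPM with LPS, and the 2 groups overlapped. The group means were 108 ± 27.7 and 43.1 ± 5.71 CPM without conditioning and 57.3 ± 9.91 and 54.5 ± 9.17 CPM after it (SD, n = 3). Every Saline Cond library was below every Saline Non-Cond library, so the conditioned level with saline was already low. The libraries held between 11 and 57 counts of this gene.

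Member 2, ENSGALG00000038251.2, had 47.6, 74.0 and 80.4 CPM in the Saline Non-Cond libraries and 18.9, 43.9 and 36.6 CPM in the LPS Non-Cond libraries. The groups did not overlap, but the gap between the lowest saline and the highest LPS library was narrow. Its conditioned libraries spread widely, with 20.3, 50.8 and 41.5 CPM with saline and 36.3, 35.7 and 57.6 CPM with LPS. The fitted LPS effect was -1.03 ± 0.37 without conditioning and 0.28 ± 0.36 after it (log2, SE, edgeR quasi-likelihood fit over all 12 libraries).

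Member 7 was the most abundant and the most precisely counted, with 11536 counts in all. It had 2026, 2971 and 3529.9 CPM in the Saline Non-Cond libraries and 1331, 1782 and 1706 CPM in the LPS Non-Cond libraries. After conditioning it had 1766, 2324 and 1813 CPM with saline and 2630.1, 2040.2 and 1997 CPM with LPS. The Saline Non-Cond libraries were all higher than the LPS Non-Cond ones, and the LPS Cond libraries were all higher than the LPS Non-Cond ones as well, while the conditioned groups overlapped. Its fitted LPS effect was -0.89 ± 0.20 without conditioning and 0.20 ± 0.20 after it (log2, SE), and the difference of the 2 effects was 1.08 ± 0.29. Counting error gave its a a standard error of 0.04.

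Members 14 and 15 came next in abundance. Member 14 had 203, 301 and 249 CPM in the Saline Non-Cond libraries and 148, 127 and 133 CPM with LPS. After conditioning it had 168, 174 and 185 CPM with saline and 154, 180.2 and 162 CPM with LPS. Its 6 conditioned libraries thus lay in a narrow band that was below every Saline Non-Cond library and above every LPS Non-Cond library. Member 15 had 314, 269.6 and 443 CPM with saline against 211, 174 and 156 CPM with LPS without conditioning. Its conditioned libraries, 275, 288 and 181 CPM with saline and 167, 212 and 292 CPM with LPS, covered nearly the same range in both groups.

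**Figure D2:**
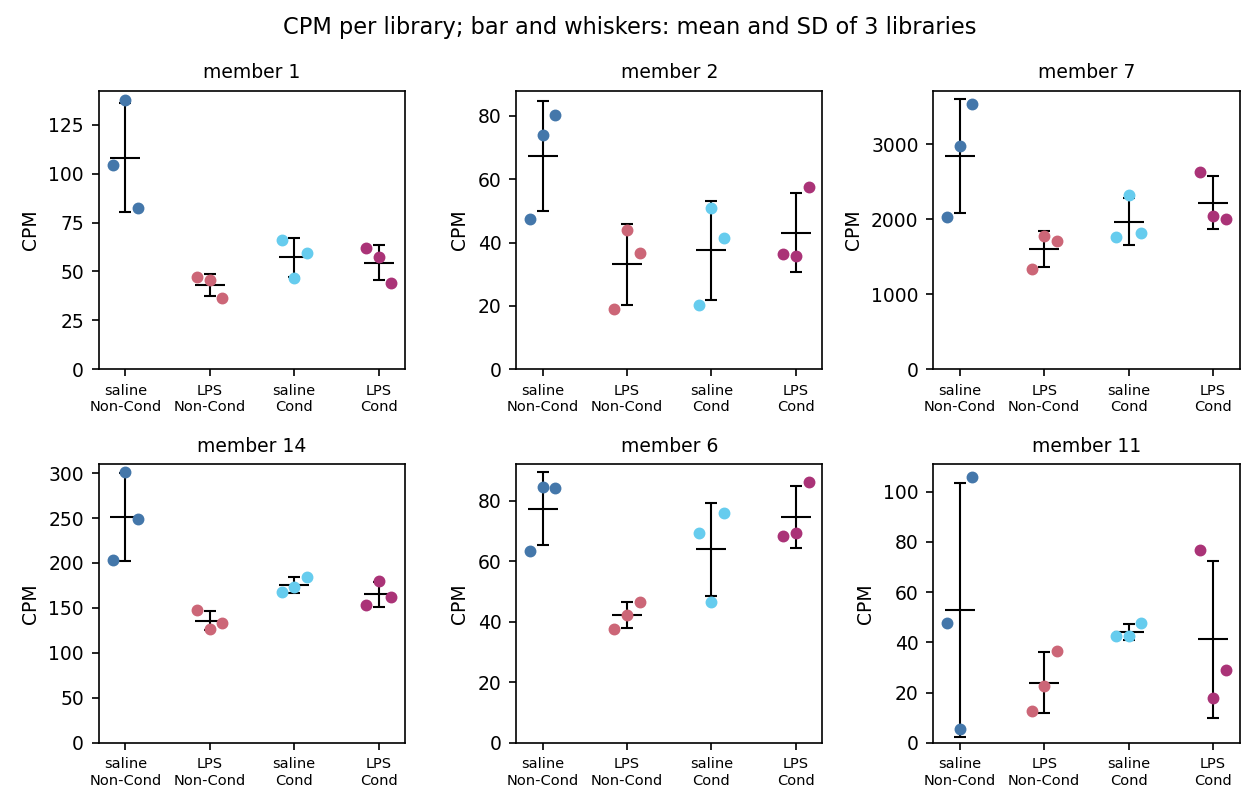
CPM of 6 members in each of the 12 libraries (points), with the mean and SD of the 3 libraries of a group (bar and whiskers); every vertical axis starts at 0. In members 1, 2, 6, 7 and 14 the Saline Non-Cond libraries lie above the LPS Non-Cond libraries and the conditioned groups overlap, whereas member 11 runs from 5.29 to 106 CPM within the Saline Non-Cond group alone.

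In 15 of the 22 members all 3 Saline Non-Cond libraries were higher than all 3 LPS Non-Cond libraries, a separation found in 6.33% of the 3999 genes. The rule used this contrast, so nothing is read from that count. The others were members 4, 9, 11, 12, 17, 19 and 22, in which at least 1 saline library lay within or below the LPS range. Member 11 was the most uneven, with 47.6, 5.29 and 106 CPM in the Saline Non-Cond libraries, where replicate 2 held a single count of it, and 12.6, 22.7 and 36.6 CPM with LPS. Its LPS Cond libraries were uneven too, at 76.9, 17.8 and 28.8 CPM, beside 42.4, 42.3 and 47.8 CPM in the Saline Cond libraries. Member 19 rested on Saline Non-Cond replicate 2, where it reached 148 CPM, against 41.2 and 78.4 CPM in the other saline libraries and 34.6, 55.2 and 53.2 CPM with LPS.

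In conditioned chicks the saline and LPS libraries overlapped in 21 of the 22 members, and groups without overlap were seen in 16.0% of the 3999 genes. The exception was member 16, with 62.7, 63.5 and 66.4 CPM with saline and 61.9, 59.4 and 50.9 CPM with LPS, a small difference between tight groups in the direction of the fall. The libraries of this gene without conditioning were at 53.9, 122 and 88.2 CPM with saline and 44.1, 47.1 and 43.2 CPM with LPS. Overlap of 3 libraries with 3 does not show that the levels were the same. Because the rule kept only genes with b above its limit, overlap after conditioning is favoured by the choice. Nothing is read from the count of members with overlap.

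A fit across all 5170 genes that passed a filter on low counts (edgeR quasi-likelihood, 4 groups of 3 libraries) held all 22 members. At a Benjamini-Hochberg adjusted p under 0.05 it called 3 members, numbers 1, 7 and 14, as lower with LPS in non-conditioned chicks, where 0.0967% of the tested genes (5 of 5170) were called in that direction. Since the rule used this contrast, the count only places the members in the fit. It was 5, 0 and 1 without Saline Non-Cond replicates 1, 2 and 3 in turn, and 0 without LPS Non-Cond replicate 2 or 3. It was 1 without LPS Cond replicate 1, and 2 without each of the other libraries in turn. DESeq2 called 4 members, and limma with library weights called 0, as did edgeR on the 6 compared libraries alone. The share of all tested genes called in these other fits was not counted, so nothing is read from the changes in count.

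After conditioning 0 of the 22 members were called with edgeR as lower with LPS, where 0.058% of the tested genes were, and 0 had an unadjusted p under 0.05 in that direction, where 3.87% did. DESeq2 and limma with library weights also called 0. Because the rule kept only genes with b above its limit, calls as lower with LPS after conditioning were made unlikely by the choice. Nothing is read from these counts. The 95% interval of the LPS effect after conditioning held 0 in all 22 members and had a median half-width of 0.66. It reached to -0.8 or lower in 8 members. The limit of -0.8 on a was set with 5 CPM added to each mean, and the fitted effects are on another scale. Without conditioning member 8, for example, had a of -1.09 and a fitted effect of -1.53. An interval that reached -0.8 therefore need not hold a fall as deep as the limit on a. These intervals do not allow for the choice of members on the same libraries.

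The difference of the 2 LPS effects, fitted as an interaction, was 0.96 at the median member and 0.02 over all tested genes. With edgeR 0 members were called in either direction. Of the 5170 genes 0.0% were called with a higher effect after conditioning, and calls in the other direction were not counted. An unadjusted p under 0.05 with a higher effect after conditioning was found in 9 members, beside 3.15% of all tested genes. DESeq2 and limma with library weights called 0 members. The 9 were members 1, 2, 3, 5, 6, 7, 14, 15 and 18, and for the other 13 the 95% interval of the difference held 0. The contrast is built from both effects the rule used, so these values too are a description. Without Saline Non-Cond replicate 1 the count of members called was 1. The share of all tested genes called in that fit was not counted, so nothing is read from that call.

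The difference between the LPS effects can be written as the effect of conditioning with LPS minus the effect of conditioning with saline, and both sides took part in it. In saline-injected chicks the mean of every member was lower after conditioning, with log2 differences from -0.86 to -0.11 and a median of -0.48, against a median of 0.00 over all 3999 genes. In LPS-injected chicks the mean of 21 members was higher after conditioning, and the values ran from -0.20 to 0.76 with a median of 0.39, against -0.01 over all genes. The saline side was the larger part of the difference in 14 members and the LPS side in 8. The rule favours these directions, because a fall without conditioning selects for high Saline Non-Cond and low LPS Non-Cond libraries, and both comparisons share those libraries.

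**Figure D3:**
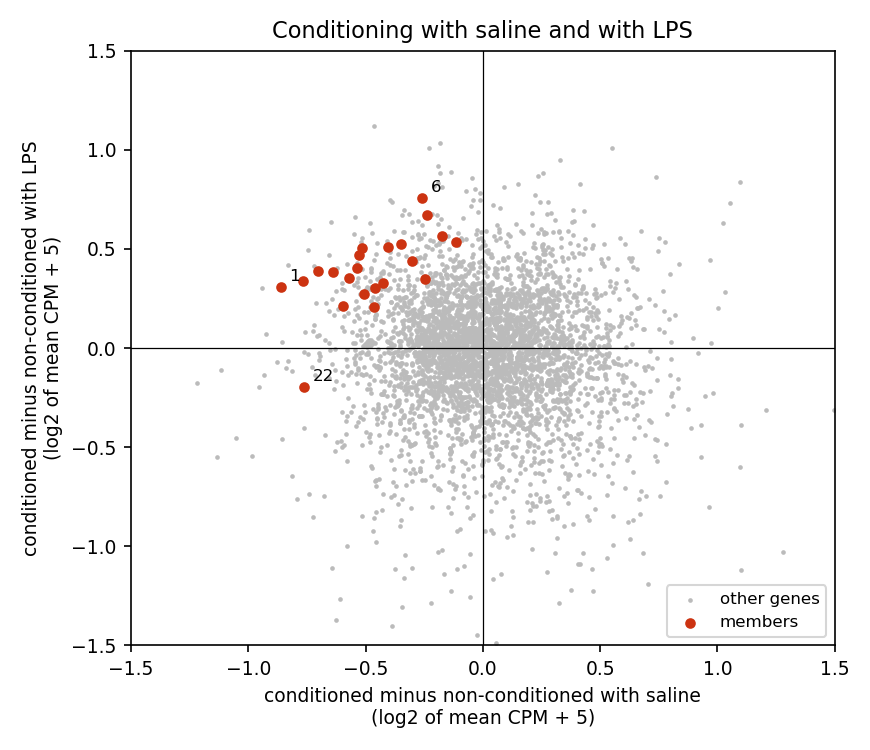
Conditioned minus non-conditioned level with saline (horizontal) and with LPS (vertical), as log2 of group mean CPM plus 5, for the members (red, with members 1, 6 and 22 numbered) and other genes (grey); 14 of the 3999 genes lie beyond the axes, which end at 1.5. The members fill the upper left, lower after conditioning with saline and higher with LPS, apart from member 22, which was lower in both.

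The highest group mean of every member was that of Saline Non-Cond, and the lowest was that of LPS Non-Cond in 21 members. In those 21 both conditioned means lay between the non-conditioned ones. On a scale where the LPS Non-Cond mean is 0% and the Saline Non-Cond mean is 100%, the Saline Cond mean of a member was at 39.5% and the LPS Cond mean at 32.6% (medians). On this CPM scale the conditioned groups thus sat nearer to the LPS Non-Cond level than to the Saline Non-Cond level at the median member. On the log2 scale the median changes with conditioning were -0.48 with saline and 0.39 with LPS, beside a median a of -0.88. The rule selects for high Saline Non-Cond and low LPS Non-Cond means, so conditioned means between them are favoured by the choice and nothing is read from these positions. Between members the position of Saline Cond ran from 6.16% to 82.4% and that of LPS Cond from -16.4% to 92.2%.

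Members 6 and 18 differed mostly on the LPS side. Member 6 had 63.4, 84.6 and 84.3 CPM with saline and 37.8, 42.2 and 46.6 CPM with LPS without conditioning, and 69.5, 46.6 and 75.8 CPM with saline and 68.3, 69.3 and 86.3 CPM with LPS after it. Its LPS Cond libraries were all above its LPS Non-Cond libraries, and its Saline Cond libraries spread from just above the LPS Non-Cond range into the Saline Non-Cond range. Member 18 showed the same order, with 53.5, 47.1 and 43.2 CPM in LPS Non-Cond and 79.0, 79.2 and 62.0 CPM in LPS Cond. Its saline libraries were at 108, 74.0 and 84.3 CPM without and 79.7, 84.7 and 69.6 CPM with conditioning.

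Members 1, 3 and 13 differed mostly on the saline side. Member 3 had 63.4, 84.6 and 68.6 CPM in the Saline Non-Cond libraries and 32.2, 38.1 and 57.1 CPM in the Saline Cond libraries, with no overlap. With LPS it had 44.1, 34.1 and 33.3 CPM without and 36.3, 45.6 and 68.6 CPM with conditioning, and these groups overlapped. Member 13 went from 47.6, 68.7 and 37.2 CPM in Saline Non-Cond to 30.5, 33.9 and 32.2 CPM in Saline Cond, while its LPS libraries spanned 16.6 to 35.7 CPM without and 17.1 to 39.9 CPM with conditioning. Member 22 went against the rest, since its LPS Cond mean of 45.5 ± 5.69 CPM was the lowest of its 4 group means (SD, n = 3). Its Saline Cond mean of 55.7 ± 15.6 CPM lay close to the LPS Non-Cond mean of 52.9 ± 7.20 CPM, and the Saline Non-Cond mean was 98.0 ± 39.5 CPM.

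Separation of single libraries was also counted on the LPS side and on the saline side. In 5 members (6, 7, 14, 16 and 18) all LPS Cond libraries were above all LPS Non-Cond libraries, where 5.65% of the 3999 genes showed this. In 4 members (1, 3, 13 and 14) all Saline Cond libraries were below all Saline Non-Cond libraries, where 4.8% of all genes did. Member 14 alone met both descriptions. With edgeR 0 members were called for conditioning with saline, where 0.0% of tested genes were called as lower after conditioning. For conditioning with LPS 0 were called, where 0.0% of tested genes were called as higher. Calls of all tested genes in the opposite directions were not counted. At an unadjusted p under 0.05 there were 8 members for conditioning with saline, all lower after it, beside 2.71% of tested genes in that direction. For conditioning with LPS there were 3 members, all higher, beside 2.36%. DESeq2 and limma with library weights called 0 members in either comparison. Both comparisons share libraries with the rule, which favours these directions, so nothing is read from the counts in this paragraph.

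Summed over the 21 members other than the most abundant, the level was 1772, 2029.8 and 1852 CPM in the Saline Non-Cond libraries and 960.0, 1020.3 and 884 CPM in the LPS Non-Cond libraries. It was 1321, 1372 and 1285 CPM in the Saline Cond libraries and 1240.4, 1210.2 and 1328 CPM in the LPS Cond libraries. For these 21 genes the conditioned libraries of both injections lay between the non-conditioned groups, with no overlap with either of them. With the most abundant member added the band met the saline range, since LPS Cond replicate 1, at 3870.5 CPM, was above Saline Non-Cond replicate 1, at 3798 CPM. For the 21 members other than the most abundant, the group means with saline and LPS were 1885 ± 132 and 955 ± 68.0 CPM without conditioning and 1326 ± 43.4 and 1259.7 ± 61.4 CPM after it (SD, n = 3). The separation of the non-conditioned groups is fixed by the choice of members. A place of the conditioned libraries between them is favoured by the same choice, so nothing is read from it.

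**Figure D4:**
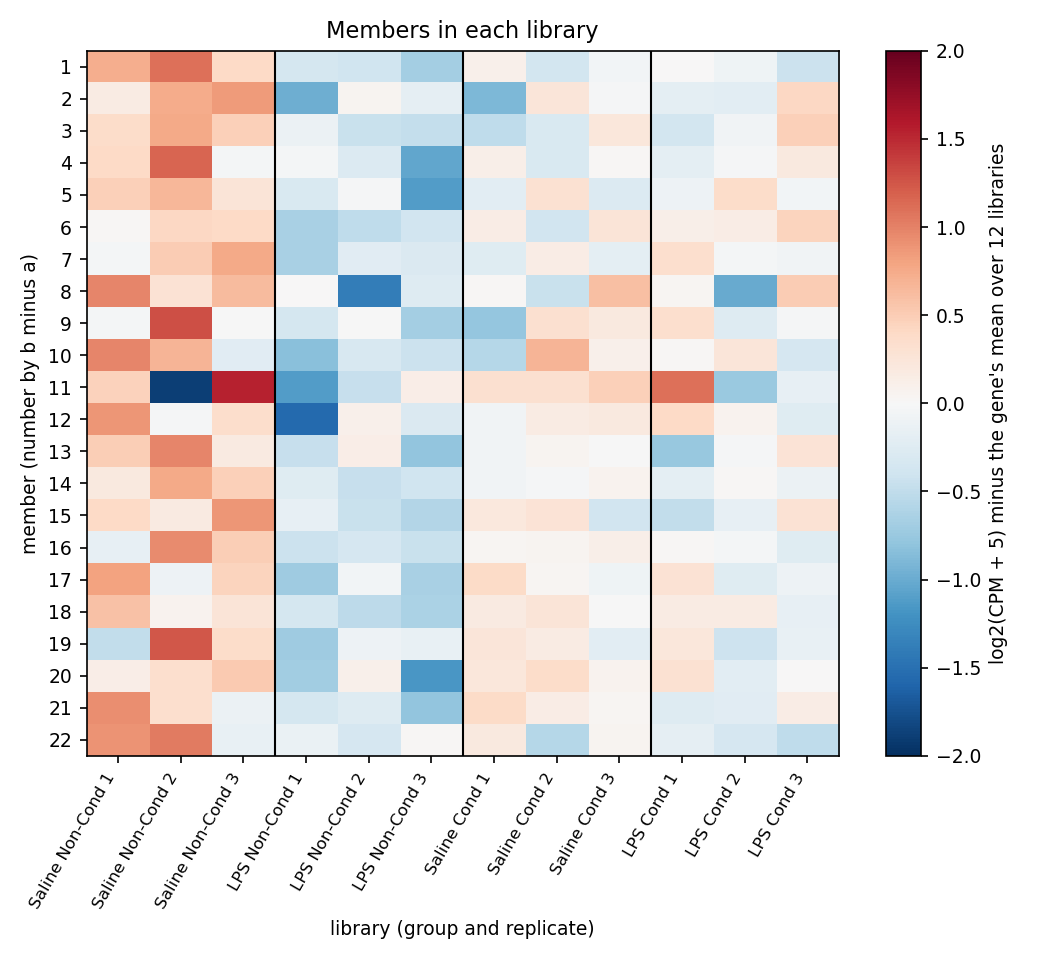
Level of each member (rows, numbered by b minus a) in each library (columns), as log2(CPM + 5) minus the gene's mean over the 12 libraries; red is above and blue below that mean, and vertical lines part the groups. The Saline Non-Cond block is mostly red, with between 17 and 19 members above their mean in each library, the LPS Non-Cond block is mostly blue, with 1 to 4 members above it, and the conditioned blocks are pale.

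Single libraries carried unequal shares of the pattern. The highest of the 12 values was in Saline Non-Cond replicate 2 for 10 members, in replicate 1 for 6 and in replicate 3 for 5, and in LPS Cond replicate 3 for member 6. Saline Non-Cond replicate 2 was also the shallowest library. The lowest value was in LPS Non-Cond replicate 3 for 9 members and in LPS Non-Cond replicate 1 for 7. The rule favours high values in Saline Non-Cond and low values in LPS Non-Cond. How often each library held the highest or lowest value over all 3999 genes was not counted. The median member lay 0.68 above its own mean on the log2 scale in Saline Non-Cond replicate 2, and 0.43 and 0.40 above it in replicates 1 and 3. Over all 3999 genes these medians were 0.01, 0.09 and -0.08. The part that depth plays in the members' high values there was not tested.

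The spread of the members between replicates was widest in Saline Non-Cond. The coefficient of variation of a member was 29.1% at the median in Saline Non-Cond, 22.7% in LPS Non-Cond, 17.2% in Saline Cond and 21.8% in LPS Cond. For the 3378 genes whose mean level was within the range of the members other than the most abundant, the medians were 26.4%, 21.6%, 19.3% and 16.96%. Saline Non-Cond was thus the most uneven group for genes of that abundance in general.

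Correlations among the members were mostly those of the group means. Over the 231 pairs of members, the correlation of log2(CPM + 5) over the 12 libraries was 0.51 at the median, and the rule itself selects for a shared group pattern. Once each gene's group means were subtracted, the median was 0.05, within a range of -0.89 to 0.84, beside a median of 0.03 over pairs of all 3999 genes. Members 14 and 16 were the most alike pair over the 12 libraries, with r = 0.91, and had r = 0.81 after subtraction, where members 16 and 19 were the most alike (r = 0.84). Members 14 and 16 both had their highest value in Saline Non-Cond replicate 2. All genes share the same 12 libraries and their depths, so these correlations are a description.

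When the rule was applied with 1 library left out, the left-out library gave a value that had not taken part in the choice. Without Saline Non-Cond replicates 1, 2 and 3 in turn, the rule chose 27, 21 and 32 genes, whose median LPS effect without conditioning was -0.95, -0.92 and -0.91 in the libraries that chose them. Set against the same LPS Non-Cond means, which the rule had used, the left-out saline library gave medians of -0.46, -0.29 and -0.32. The effect was negative in 24 of 27, 12 of 21 and 22 of 32 genes (88.9%, 57.1% and 68.8%), and at or under -0.8 in 5, 4 and 4 of them. Over all genes that met the count minimum, the medians in the left-out libraries were -0.06, 0.04 and 0.12, and the effect was negative in 56.2%, 47.1% and 40.3% of genes and at or under -0.8 in 2.24%, 3.35% and 1.5%.

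The LPS Non-Cond libraries were treated in the same way. The rule chose 28, 46 and 31 genes without replicates 1, 2 and 3, with medians of -0.89, -0.90 and -0.90 in the libraries used and -0.53, -0.47 and -0.48 in the library left out. The effect was negative in 22 of 28, 38 of 46 and 28 of 31 genes, and in 52.7%, 49.2% and 50.4% of all genes. In all 6 cases the median was nearer to 0 in the left-out library than in the libraries that chose the genes. In conditioned chicks the left-out library gave medians between -0.22 and -0.07, beside -0.13 to -0.03 in the libraries used. In each case the left-out library was set against the other injection group of its state, which the rule had used. Without conditioning a negative value is therefore favoured by the choice, no value for no LPS effect is at hand, and the sign supports nothing.

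**Figure D5:**
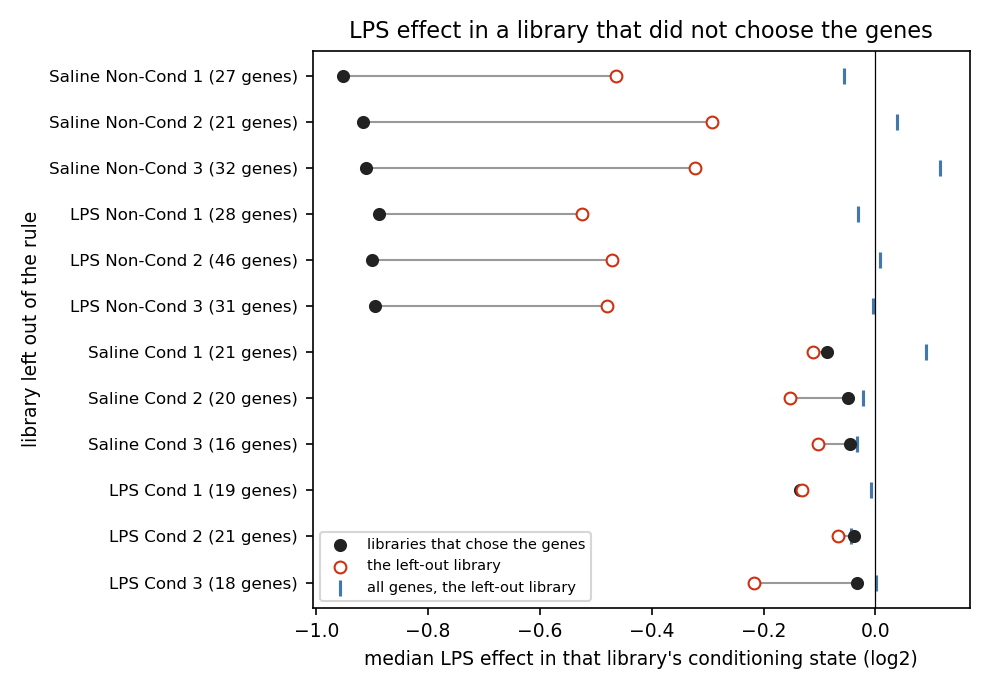
Median LPS effect (log2, in the conditioning state of the left-out library) of the genes that the rule chose with 1 library left out, in the libraries that chose them (filled) and with the left-out library in place of its group (open); blue ticks give the median of all genes in the left-out library. For the 6 non-conditioned libraries the median goes from between -0.95 and -0.89 to between -0.53 and -0.29, and for the 6 conditioned libraries all medians of the chosen genes lie between -0.22 and -0.03.

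Membership itself depended on single libraries. With a library left out, 10 to 20 of the 22 members were chosen again, with the fewest, 10, without Saline Non-Cond replicate 2 and 13 without Saline Non-Cond replicate 3, LPS Non-Cond replicate 1 or LPS Non-Cond replicate 3. Member 1 was chosen in all 12 cases, and members 3, 14 and 16 in 11 of 12. Another 12 members were chosen in 8 to 10 cases and 6 in fewer than 8. The count minimum was kept at 150 over the 11 libraries, and 6 members were under it without Saline Cond replicate 3. Member 8, with 154 counts in all, was chosen in 0 of 12 cases: it missed the limits on a or b without LPS Non-Cond replicate 2 or Saline Cond replicate 2, and was under the minimum without each of the others.

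The remaining members, 4, 5, 8, 9, 10, 12, 17, 20 and 21, had means of 27.9 to 74.7 CPM. Member 5, the most abundant of them, had 101, 116 and 86.2 CPM with saline and 56.7, 69.9 and 29.9 CPM with LPS without conditioning, and 61.0, 88.9 and 58.1 CPM with saline and 66.2, 93.1 and 68.6 CPM with LPS after it. The conditioned groups covered nearly the same range. Member 8, the least abundant, had 42.3 ± 11.1 and 17.2 ± 9.64 CPM without conditioning and 27.6 ± 11.9 and 24.4 ± 13.9 CPM after it (SD, n = 3), from 4 to 39 counts per library. Member 12 had 9.44 CPM in LPS Non-Cond replicate 1 against 40.6 and 29.9 CPM in the other LPS Non-Cond libraries, so that its group ran into the saline libraries, at 72.9, 37.0 and 49.0 CPM. Member 20 had a Saline Cond mean of 34.0 ± 4.0 CPM, close to its Saline Non-Cond mean of 37.3 ± 5.71 CPM, and its LPS Non-Cond mean was 18.9 ± 10.8 CPM (SD, n = 3). Member 21, at the limit of the rule, had 57.3 ± 7.88 CPM in Saline Cond and 45.8 ± 8.25 CPM in LPS Cond (SD, n = 3), and the 2 groups overlapped.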

How the data were processed

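Raw counts per gene were deposited by the authors for 12 libraries, per the file headers, together with a normalized signal that equals each raw count times 1 factor of its library (1.13 to 6.25). How the factors were set is not stated. Per the submitters' processing notes, the galGal5 build and the tools HTSeq, STAR, cutadapt and DESeq2 were used, with no versions or order. Whether the counts are reads or molecules, and whether counting used strand, is not given in the sources used here, so counts of overlapping genes or near-identical copies are uncertain. Per the labels' protocols, 15 ng of RNA and single reads of 100 bp were used. Members and lists were chosen with earlier results of these data known.

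Totals ran from 189180 to 963146 counts. CPM used the column sum. Genes kept by filterByExpr (5170) were fitted with edgeR 4.0.16 in R 4.3.3 (TMM, quasi-likelihood, 2-sided, 1 mean per group, 12 libraries, no covariate), with calls made under 0.05 after Benjamini-Hochberg adjustment over all tested genes. A standard error is the size of a log2 fold change divided by the square root of F. Counting errors were taken from Poisson counts by the delta method and cover counting error only. DESeq2 1.42.0 and limma 3.58.1 were alternatives. Members to be named with an identifier were the first 2 by b minus a among those with a mean of at least 20 CPM and no overlap without conditioning. Other members shown by library were picked after their values were seen. The 17 gene and marker lists that had been written could not be applied, because no identifier had a symbol, and none was tested. The look at left-out libraries was chosen after the data were seen.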

Additional observations from a re-analysis of the deposited data

How the results depend on the processing

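The rule found 22 genes. It found 36 with the authors' normalized columns, 34 with a pseudocount of 1 CPM, 14 with 10 CPM, 76 with 50 or more counts, 3 with 500 or more, 36 with group medians and 0 with limits of -1 and 0. TMM scaling gave 29. Leaving out a library gave 16 to 46 genes. The 22 members were all found again with TMM scaling and the authors' columns, and 11 of them with group medians. Of the 3 members called lower with LPS without conditioning, no filter on low counts gave 5, the 6 compared libraries alone 0, limma with library weights 0, and leaving out a library 0 to 5. The interaction called 0 members, 1 when low counts were not filtered, and 0 to 1 with a library left out. For these counts of calls, the share of all tested genes called was counted for the main fit alone, so nothing is read from the changes. For LPS after conditioning, and for conditioning with saline or LPS, every alternative run gave 0 members called. Since the rule limited b, a count of 0 for LPS after conditioning is favoured by the choice of members. The medians of the members kept their direction. These members were chosen on all 12 libraries by a rule that favours or limits these values, so nothing is read from that. With a library left out the medians ran from -1.08 to -0.90 for LPS without conditioning and -0.10 to -0.02 after it. They ran from -0.65 to -0.43 for conditioning with saline, 0.32 to 0.59 with LPS and 0.82 to 1.11 for the interaction. With replicate number as a block, 2 members were called for LPS without conditioning and the medians were -0.99, -0.10, -0.53, 0.45 and 0.99 in the same order. Deviations of same-numbered libraries correlated at -0.12 to 0.16, above 0.1 in 3 of 18 pairs. Those of differently numbered libraries in different groups ran from -0.17 to 0.14. Values this small do not settle whether the numbers pair the libraries. Apart from the count minimum, the cause of these moves was not tested.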
